A study of Mus musculus with 127 samples.

Results

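The 10 genes described here carry dopamine and adenosine signals in the projection neurons of the striatum: the receptors Drd1, Drd2 and Adora2a, the G protein subunits Gnal and Gng7, the adenylyl cyclase Adcy5, the G protein regulator Rgs9, the protein kinase A targets Ppp1r1b and Arpp21, and the tyrosine phosphatase Ptpn5. They were taken by symbol from the 53465 genes of the deposited read count table, whatever their level, and all 10 were found and passed the filter on low counts. Single striatal neurons in culture were patch clamped and then aspirated for RNA sequencing, one library a cell. The neurons came from newborn wild-type C57BL/6 mice and were grown on small islands of astrocytes from mouse cortex. All neurons had been infected with a lentivirus, and the labels name no promoter for it. It carried exon 1 of human HTT, the Huntington disease gene, fused to GFP, with 25 glutamines (25Q, normal length) or 97 glutamines (97Q, expanded), or was an empty vector. RGFP109, which blocks HDAC1 and HDAC3 (enzymes that take acetyl groups off histones), was given at 100 nM from day 6 in vitro and again every 3 days. The other 25Q and 97Q neurons received its vehicle, DMSO, and every cell was collected on day 15. Held here were 29 neurons of 25Q with vehicle, 26 of 97Q with vehicle, 23 of 25Q with RGFP109, 26 of 97Q with RGFP109, 9 with the empty vector and 14 astrocytes.

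In the striatum, dopamine reaches a pair of projection neuron types: those of the direct pathway carry the D1 receptor (Drd1), and those of the indirect pathway carry the D2 receptor (Drd2) together with the adenosine A2a receptor (Adora2a). D1 and A2a receptors raise cyclic AMP through the striatal stimulatory G protein Golf, whose alpha subunit is Gnal and whose gamma subunit is Gng7, and through the cyclase Adcy5; D2 receptors act on the same cyclase in the opposite direction. Cyclic AMP activates protein kinase A, which phosphorylates DARPP-32 (Ppp1r1b) and ARPP-21 (Arpp21), while the phosphatase STEP (Ptpn5) acts on kinases and receptor subunits at synapses.

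Stretches of 250 bases before the annotated RefSeq start (GRCm38.p6) are shown for 4 of the genes: the dopamine receptors Drd1 (chr13:54054781-54055030, reverse strand) and Drd2 (chr9:49340153-49340402, forward strand), whose levels set apart the neuron classes below, and Gng7 (chr10:81014926-81015175, reverse strand) and Rgs9 (chr11:109298182-109298431, reverse strand), G protein genes whose 97Q values lay below those of 25Q in every batch. Sequences run 5′ to 3′ along the gene, and capitals mark the GC box, GGGCGG or its reverse complement CCGCCC. Drd1 and Gng7 each have a second listed start whose stretch holds no GC box, and the one with GC boxes is shown. The Drd1 stretch shown lies within the gene as GENCODE places it.
Drd1: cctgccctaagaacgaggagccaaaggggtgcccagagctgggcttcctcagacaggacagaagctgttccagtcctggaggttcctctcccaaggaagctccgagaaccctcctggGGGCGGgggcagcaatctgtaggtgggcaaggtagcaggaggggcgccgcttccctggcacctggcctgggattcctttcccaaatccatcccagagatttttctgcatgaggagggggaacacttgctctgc
Drd2: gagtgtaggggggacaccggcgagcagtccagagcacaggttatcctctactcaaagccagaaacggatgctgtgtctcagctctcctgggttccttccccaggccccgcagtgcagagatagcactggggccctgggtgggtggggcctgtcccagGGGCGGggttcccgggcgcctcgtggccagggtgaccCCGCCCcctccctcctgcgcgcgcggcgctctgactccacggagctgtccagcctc
Gng7: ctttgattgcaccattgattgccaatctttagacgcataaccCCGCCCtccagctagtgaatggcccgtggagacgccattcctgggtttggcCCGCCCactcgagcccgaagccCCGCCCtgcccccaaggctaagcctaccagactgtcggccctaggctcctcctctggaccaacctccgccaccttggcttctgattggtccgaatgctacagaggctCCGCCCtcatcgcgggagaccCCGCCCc
Rgs9: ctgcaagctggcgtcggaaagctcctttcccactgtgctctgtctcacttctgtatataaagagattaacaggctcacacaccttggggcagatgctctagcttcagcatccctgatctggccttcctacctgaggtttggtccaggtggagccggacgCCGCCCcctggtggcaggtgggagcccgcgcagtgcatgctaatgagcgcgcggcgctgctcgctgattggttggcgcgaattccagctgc
The Gng7 stretch holds 5 GC boxes, all in the CCGCCC orientation and the nearest starting 7 bases before the start. The Drd2 stretch holds 2, one in each orientation, and the Drd1 and Rgs9 stretches hold 1 each. The table of RefSeq starts had 18 stretches for 7 of the 10 genes, and 6 of these 18 (33.3%) held a GC box, beside 32.7% of the 32851 stretches of that length for all genes. A match is only a description of these letters. Adora2a, Gnal and Ppp1r1b had no entry.

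Each cell gave between 999700 and 9263305 counts (median 4440040) over 6433 to 15455 detected genes. The labels assign the cells to 3 batches and name no animal or culture. Within each batch the counts of a group's cells were therefore added up, which gave 12 sums for the 4 huntingtin groups, each from 3 to 15 cells and 8665881 to 76217208 counts; values are CPM (counts scaled by the total of their library) of a sum unless a single cell is named. The empty vector neurons and the astrocytes all belong to batch 3 and form 1 sum each. The fits hold a term for batch, so their p-values measure how far differences between groups varied from batch to batch. That spread may be technical. Batch 2 held 15 neurons with a median of 8877 detected genes, beside 12436 in batch 1 and 11844 in batch 3. The 12 pan-neuronal marker genes summed to 5089–8893 CPM in 25Q vehicle and 5759–7978 CPM in 97Q vehicle, beside 877 CPM in the astrocytes, whose 12 astrocyte markers summed to 9344 CPM.

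The members differed widely in how many neurons carried them. Arpp21 had a count in every neuron analysed, Gnal and Ptpn5 in 112, Gng7 in 106, Adcy5 in 101, Ppp1r1b in 90 and Rgs9 in 74. The receptors were the sparsest: Drd1 was detected in 58 neurons, Drd2 in 37 and Adora2a in 31. A median 25Q vehicle neuron had 6 of the 10 genes at 10 CPM or more, a 97Q vehicle neuron 4, and a neuron of either RGFP109 group or of the empty vector 5. In the astrocytes the median was 0.5 genes. Their levels of Drd1 and Adora2a were 0 counts in 14 of 14 cells and that of Drd2 was 1 count in all. Gng7 was at 10 CPM or more in 5 of 14 astrocytes and reached 305 CPM, and Gnal and Rgs9 passed that level in 1 astrocyte each, at 44.98 and 12.2 CPM.

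**Figure D1:**
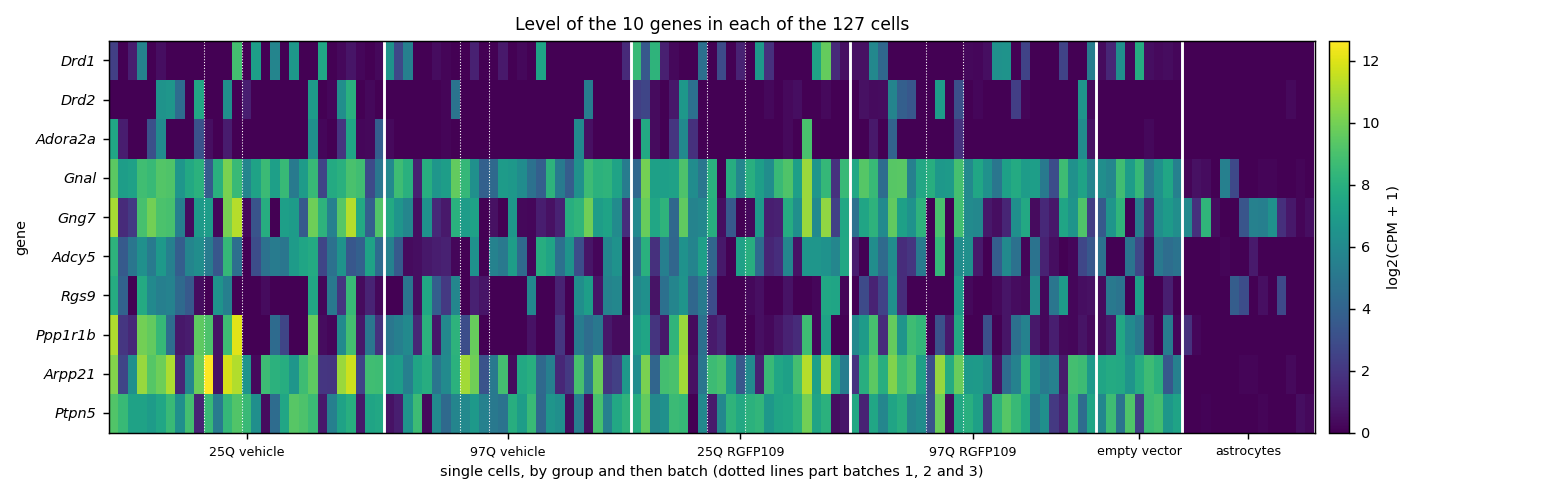
Each column is 1 cell and each row 1 of the 10 genes; the colour gives log2(CPM + 1), with cells ordered by group and, within a group, by batch. Gnal, Arpp21 and Ptpn5 fill nearly all neuron columns, the receptors Drd1 (58 neurons with a count), Drd2 (37) and Adora2a (31) are sparse, and the 14 astrocytes are mostly dark, with Gng7 at 10 CPM or more in 5 of them.

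Per kilobase of exon, the order of levels in the 25Q vehicle sums (mean ± SD, n = 3) was Ppp1r1b at 259 ± 307 CPM per kb, Gng7 at 165 ± 110, Arpp21 at 70.5 ± 60.6, Ptpn5 at 44.2 ± 14.8, Gnal at 28.5 ± 9.01, Drd1 at 19.4 ± 24.9, Drd2 at 11.2 ± 5.63, Adcy5 at 9.02 ± 1.58, Rgs9 at 6.60 ± 1.497 and Adora2a at 4.13 ± 3.58 CPM per kb. The ranges of every pair of neighbours in that order overlapped between batches. The order also depended on 1 cell, neuron 14 of 25Q vehicle (described with the sums below). Without it Gng7 came first at 96.2 ± 9.85 CPM per kb and Ppp1r1b next at 84.6 ± 56.2, while Drd1 came last at 3.44 ± 4.97 CPM per kb.

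The receptors were counted in single neurons first. At a level of 10 CPM or more, 22 neurons carried Drd1 only, 20 carried Drd2 or Adora2a without Drd1, 1 carried Drd1 with Adora2a, and 70 carried none of the 3; no neuron carried Drd1 and Drd2. The exception was a 25Q RGFP109 neuron of batch 1 with Drd1 at 10.4 CPM, just over the threshold. For each receptor gene, 4 neurons lay between 5 and 20 CPM. With a threshold of 1 count, 36 neurons carried Drd1 only, 26 Drd2 or Adora2a without Drd1, 22 both and 29 none, and Drd1 and Drd2 were then found together in 16. These joint counts were low: among the 22 neurons with Drd1 only, whose Drd1 ran from 17.5 to 808 CPM (median 97.6), Drd2 and Adora2a summed to 0 in 14 and to at most 4.07 CPM in the other 8. Among the 20 neurons with Drd2 or Adora2a, whose sum of both ran from 12.6 to 515 CPM (median 89.6), Drd1 was 0 in 15 and at most 4.29 CPM in the other 5. Whether low counts came from the cell or from free RNA was not tested.

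**Figure D2:**
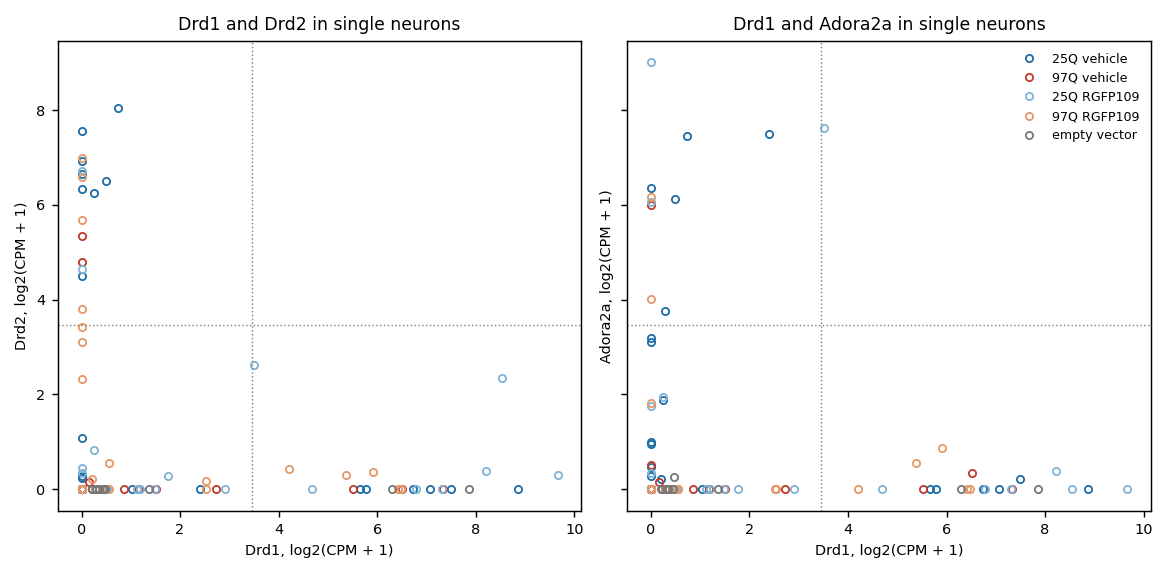
Each circle is 1 neuron, coloured by group; the horizontal axis gives Drd1 and the vertical axis Drd2 (left) or Adora2a (right), as log2(CPM + 1), and dotted lines mark 10 CPM. No neuron lies past both lines in the left panel and 1, a 25Q RGFP109 neuron, in the right panel.

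Other markers of the pathways were read in the same classes. Penk, which encodes the enkephalin precursor of indirect pathway neurons, was at 10 CPM or more in 10 of the 20 neurons with Drd2 or Adora2a and in 2 of the 22 with Drd1 only, and the orphan receptor gene Gpr6 in 9 and 2. The kainate receptor subunit gene Grik3 was at that level in 11 and 8. The direct pathway transcription factor gene Isl1 was there in 1 of the 20 and 11 of the 22. Of the other listed markers, Sp9 passed in 6 and 6, Sfxn1 in 16 and 21, and the tachykinin gene Tac1 in 1 and 1. Pdyn, Chrm4 and Eya1 passed in 0 of the 20 and in 2, 2 and 1 of the 22. The classes, which are ranges of receptor levels rather than cell types, also differed in other members. Gng7 had a median of 582 CPM in the neurons with Drd2 or Adora2a and 65.4 CPM in those with Drd1 only. The medians were 459 and 139 CPM for Gnal, 909 and 106 CPM for Arpp21, 194 and 11.6 CPM for Ppp1r1b, 42.7 and 0.538 CPM for Rgs9, 60.3 and 24.3 CPM for Adcy5 and 184 and 124 CPM for Ptpn5. All 7 medians were higher in the class with Drd2 or Adora2a over all batches, but not within each. In batch 3 the median of Adcy5 was 15.2 CPM beside 21.3 CPM in the Drd1 class, and that of Ptpn5 was 173 beside 169 CPM. For Gng7 the order was the same in batch 1 (381 and 124 CPM) and batch 3 (787 and 38.4 CPM), while in batch 2 the Drd1 class was a single 25Q vehicle neuron at 2429 CPM and the other class had a median of 791 CPM. Median depth was 3769326 and 4066912 counts. The groups were unevenly mixed, with 10 of the 20 neurons from 25Q vehicle beside 6 of the 22, and medians within groups were not computed. No test was made, since cells of a group and batch are not replicates.

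The receptor classes were also counted by group. In 25Q vehicle, 10 of 29 neurons carried Drd2 or Adora2a without Drd1 (34.5%, exact 95% interval 17.9–54.3%), and in 97Q vehicle 3 of 26 did (11.5%, 2.45–30.2%). The intervals, which cover counting of cells only, overlap. The Drd1 class took 6 of 29 and 3 of 26. With RGFP109, the class with Drd2 or Adora2a held 3 of 23 neurons in 25Q and 4 of 26 in 97Q, and the Drd1 class 6 and 5. None of the 9 empty vector neurons carried Drd2 or Adora2a at 10 CPM and 2 carried Drd1. In 97Q vehicle, 20 of 26 neurons had none of the 3 receptors at 10 CPM, beside 13 of 29 in 25Q vehicle. A sum over cells cannot tell fewer neurons of a type from less RNA per neuron, so these class counts stand beside the values of the sums below.

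The first comparison asked how neurons with the expanded repeat differed from those with the normal repeat, both with vehicle. All 10 genes had lower fitted values in 97Q, with a median log2 fold change (log2FC) of -2.15 beside 0.06 over the 15091 genes tested. None of them passed the test: edgeR's quasi-likelihood test called 0 of the 15091 genes (0%) at an adjusted p under 0.05 and 597 at an unadjusted p under 0.05, and its adjusted p was 0.969 for each of the 10. Of the 10, 3 were lower at an unadjusted p under 0.05 (Gng7, Arpp21 and Ptpn5), where 2.46% of all genes were. DESeq2 called 213 genes, with 2 of the 10 (Drd1 and Gng7) called lower beside 1.11% of all genes, and limma called 0, with 1045 at an unadjusted p under 0.05. In the sums themselves, 8 of the 10 were lower in all 3 batches, beside 13.2% of all genes; the exceptions were Drd1 and Adcy5. For 4 of the 10 (Drd2, Gng7, Rgs9 and Ptpn5) every 97Q sum lay below every 25Q sum, beside 4.68% of all genes.

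One cell weighs on several of these values. The 25Q vehicle neuron numbered 14, in batch 2, supplied 100% of that sum's Drd1 counts, 91.4% of its Ppp1r1b, 81.8% of its Gng7 and 63.9% of its Ptpn5. Its own levels were 464 CPM for Drd1, 2429 CPM for Gng7 and 4355 CPM for Ppp1r1b, the highest of any neuron for the latter pair, with 0 counts of Drd2, Adora2a and Rgs9. In fits without it, chosen after seeing the data, 9 of the 10 genes were lower (median log2FC -1.66, beside 0.17 for all genes), Drd1 was the exception, and DESeq2 called 184 genes and 0 of the 10, with 5 of the 10, and 1782 of the 15101 genes in that fit, at an unadjusted p under 0.05. Without it 7 of the 10 were lower in all 3 batches, beside 10.7% of all genes, and for 4 of the 10 the sums still did not overlap. Another 25Q vehicle neuron, numbered 26, was the largest source of several genes' counts in the batch 3 sum. It supplied 67.7% of the Adora2a counts there, 64.96% of Rgs9, 58.4% of Drd2, 41.8% of Gng7 and 40.9% of Arpp21.

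**Figure D3:**
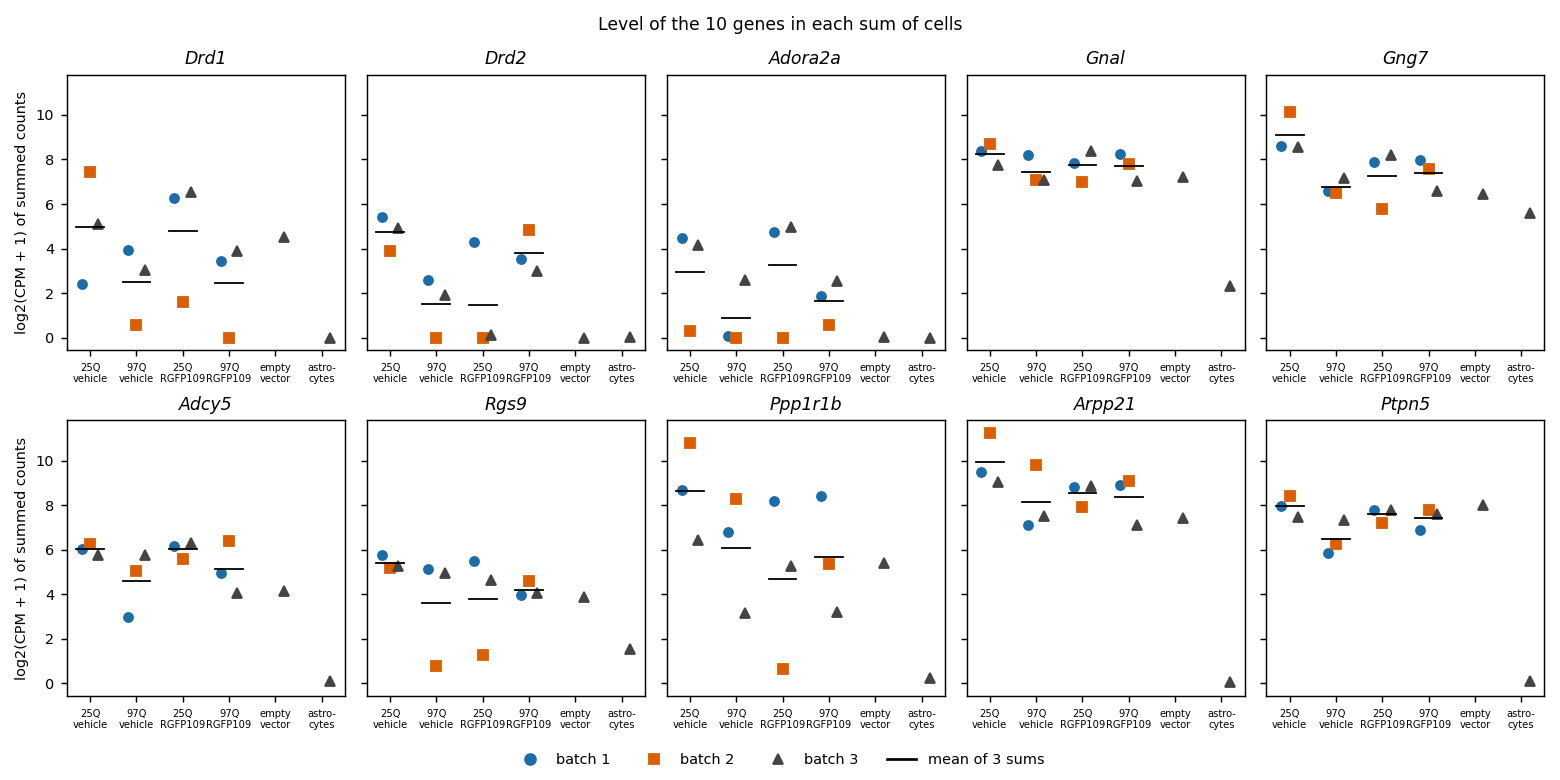
Each panel is 1 gene; points are the sums of cells of a group in 1 batch (symbols), the vertical axis gives log2(CPM + 1), and lines are means of 3 sums; the empty vector and the astrocytes have 1 sum each. The 3 sums of 97Q vehicle lie below the 3 of 25Q vehicle for Drd2, Gng7, Rgs9 and Ptpn5, and the batch 2 sum of 25Q vehicle stands highest for Drd1 and Ppp1r1b.

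Drd1 (ENSMUSG00000021478; GRCm38 chromosome 13, 54051183 to 54055705, reverse strand) encodes the dopamine receptor that raises cyclic AMP. Its 25Q vehicle sums were 4.25, 173 and 33.2 CPM in batches 1, 2 and 3, and its 97Q vehicle sums 14.2, 0.462 and 7.07 CPM. The order was opposite in batch 1, and the groups overlapped. The means were 70.2 ± 90.4 and 7.25 ± 6.88 CPM (SD, n = 3), the fitted log2FC was -6.16 (SE 2.98), and DESeq2 gave an adjusted p of 0.0160. Without neuron 14 the 25Q sum of batch 2 held 0 Drd1 counts, the log2FC was 0.73, and the DESeq2 adjusted p was 0.885 with a log2FC of 0.48. Leaving out this 1 cell thus ended the DESeq2 call and turned the direction.

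Drd2 (ENSMUSG00000032259; chromosome 9, 49340627 to 49408177, forward strand) encodes the dopamine receptor that lowers cyclic AMP. Its sums were 42.3, 13.7 and 29.6 CPM in 25Q vehicle and 4.93, 0 and 2.76 CPM in 97Q vehicle. Every 97Q sum was below every 25Q sum, with means of 2.56 ± 2.47 and 28.5 ± 14.3 CPM. At 10 CPM or more it was found in 2 of 26 neurons of 97Q and 8 of 29 of 25Q, and 1 neuron gave 99.4% of the 97Q counts in batch 1 and 100% in batch 3. The fitted log2FC was -4.02 (SE 2.23), a value that depends on how the count of 0 is handled.

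Adora2a (ENSMUSG00000020178; chromosome 10, 75316877 to 75334784, forward strand) encodes the adenosine receptor that shares indirect pathway neurons with Drd2. Its sums were 20.9, 0.216 and 16.8 CPM with the normal repeat (25Q vehicle) and 0.0545, 0 and 4.95 CPM in 97Q vehicle. The 97Q value was the lower in each batch, but in batch 2 the 25Q sum held only 4 counts, and the groups overlapped. The log2FC was -3.63 (SE 2.06). The 4 other indirect pathway markers (Penk, Gpr6, Sp9 and Grik3) summed to 109–788 CPM in 25Q vehicle and 0.462–76.3 CPM in 97Q vehicle, while the 6 direct pathway markers summed to 125–471 and 159–290 CPM. The direct list also reached 108 CPM in the astrocytes, where Tac1, Pdyn, Isl1 and Chrm4 had 0 counts. Only 2 of its 6 genes passed the filter on low counts. Its member Sfxn1 was at 10 CPM or more in 64 of the 70 neurons with none of the receptors, so the direct sum is a weak measure of that pathway. The part that these shifts in markers play in the values of Drd2 and Adora2a was not tested.

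Gnal (ENSMUSG00000024524; chromosome 18, 67088216 to 67226792, forward strand) encodes the alpha subunit of Golf, the G protein that couples D1 and A2a receptors to the cyclase. Its sums were 328, 413 and 213 CPM in 25Q vehicle and 294, 132 and 136 CPM in 97Q vehicle. The 97Q sum was lower in each batch and the groups overlapped, with a log2FC of -0.88 (SE 0.51). Of its exon bases, 852 (7.63%) overlap exons of Mppe1 on the opposite strand, and whether the counting used strand is not given in the sources used here.

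Gng7 (ENSMUSG00000048240; chromosome 10, 80948624 to 81014945, reverse strand) encodes the gamma subunit of Golf. Its sums were 394, 1109 and 376 CPM in 25Q vehicle and 96.1, 90.2 and 144 CPM in 97Q vehicle. The groups did not overlap, and the 97Q values lay close together at 110.0 ± 29.3 CPM beside 626 ± 418 CPM. The log2FC was -2.55 (SE 0.77), with an adjusted p of 0.969 in edgeR and 0.0478 in DESeq2. Without neuron 14 the 25Q sum of batch 2 was 323 CPM, still above every 97Q sum, and the DESeq2 adjusted p was 0.131 with a log2FC of -2.003. Its level was at least 10 CPM in 22 of 29 neurons of 25Q and 14 of 26 of 97Q.

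Adcy5 (ENSMUSG00000022840; chromosome 16, 35154877 to 35305738, forward strand) encodes the main adenylyl cyclase of the striatum. Its sums were 65.2, 75.9 and 53.2 CPM in 25Q vehicle and 6.94, 31.6 and 53.5 CPM in 97Q vehicle. The difference was large in batch 1, at -3.06 on the log2(CPM + 1) scale, and near 0 in batch 3 (0.0089). The log2FC was -1.27 (SE 0.84). Rgs9 (ENSMUSG00000020599; chromosome 11, 109225355 to 109298129, reverse strand) encodes a striatal accelerator of G protein switch-off. Its sums were 53.1, 35.4 and 38.1 CPM in 25Q vehicle and 34.3, 0.692 and 29.6 CPM in 97Q vehicle. The groups did not overlap, by a margin of about 1 CPM, and the batch 2 value of 97Q rested on 6 counts, found in 2 of its 3 neurons. In batch 3, 25Q vehicle neuron 26, at 378 CPM, gave 64.96% of the 25Q counts. There Rgs9 was at 10 CPM or more in 3 of 15 neurons of 25Q and 5 of 15 of 97Q. The order in batch 3 and the lack of overlap thus lean on this 1 neuron. The log2FC was -1.53 (SE 1.36).

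Ppp1r1b (ENSMUSG00000061718; chromosome 11, 98348404 to 98357796, forward strand) encodes DARPP-32, an inhibitor of protein phosphatase 1 once protein kinase A has phosphorylated it. Its sums were 414, 1779 and 85.2 CPM in 25Q vehicle and 111, 309.8 and 8.02 CPM in 97Q vehicle. The 97Q sum was lower in each batch, but the sums of the groups overlapped. The log2FC was -2.73 (SE 1.55). Without neuron 14 the batch 2 sum of 25Q was 244 CPM and no longer above that of 97Q. That 97Q sum also came almost wholly from 1 neuron, which gave 99.4% of its Ppp1r1b counts and was kept. Exons of 1700003D09Rik on the opposite strand cover 460 of its exon bases (15.7%).

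Arpp21 (ENSMUSG00000032503; chromosome 9, 112065091 to 112235938, reverse strand) encodes a striatum-rich target of protein kinase A, and its exons overlap those of 2900079G21Rik over 580 bases (3.33%). Its sums were 724, 2443 and 520.3 CPM in 25Q vehicle and 136, 904 and 179.7 CPM in 97Q vehicle. Batch 2 was the highest in both groups, and 97Q was the lower in each batch, with differences of -2.41, -1.43 and -1.53 on the log2(CPM + 1) scale. The log2FC was -1.75 (SE 0.67). Ptpn5 (ENSMUSG00000030854; chromosome 7, 47077795 to 47133684, reverse strand) encodes the phosphatase STEP. Its sums were 247, 346 and 175 CPM in 25Q vehicle and 56.3, 75.01 and 162 CPM in 97Q vehicle. The groups did not overlap, and the mean was 256 ± 86.0 CPM for 25Q beside 97.7 ± 56.3 CPM for 97Q. The batch 3 sums were near each other, and the log2FC was -1.52 (SE 0.50).

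Other genes of the pathway did not share one direction. Of 88 listed genes 74 were tested, with 39 lower and 35 higher in 97Q vehicle (median log2FC -0.08); 0 passed edgeR's test and 7 had an unadjusted p under 0.05. The 7 tested receptors were all lower (median -1.29), among them Gpr6 at -5.22 (SE 2.14) and the muscarinic receptor gene Chrm1 at -1.74 (SE 1.87). Of 21 G protein subunits 9 were lower and 12 higher (median 0.04), with Gng2 at -0.87, Gnb1 at 0.57 and Gna11 at 1.44. Of 7 other cyclases 5 were lower (median -0.28), and Adcy3 had 1.55. Protein kinase A subunits, inhibitors and anchors divided 5 to 6 (median 0.14): the anchor Akap5 had -1.63 (SE 0.60), the inhibitor Pkig -0.52, the regulatory subunit Prkar1b 0.27 and the catalytic subunit Prkaca 1.35. Among 17 phosphatases and their regulators 8 were lower (median 0.24), with spinophilin (Ppp1r9b) at -1.19, the Cdk5 activator Cdk5r1 at -0.80 and the phosphatase 2A catalytic genes Ppp2cb and Ppp2ca at 0.74 and 1.05. Of 11 genes of STEP's substrates and the ERK route 5 were lower (median 0.22), including the kinase gene Ptk2b at -3.40 (SE 1.44) and Creb1 at -1.41, with Map2k2 at 1.21 and Fyn at 1.37 (SE 0.42).

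Markers of other cells were set beside these differences. Pan-neuronal markers overlapped between the groups, as given above. The 10 general projection neuron markers did not overlap, at 742–1969 CPM in 25Q vehicle and 457–734 CPM in 97Q vehicle. Summed levels were 118–618 and 202–719 CPM for 12 astrocyte markers, 42.01–407 and 30.2–116 CPM for 10 interneuron markers, 21.1–126.6 and 77.7–313 CPM for 8 oligodendrocyte markers, and 0.216–25.8 and 6.56–39.7 CPM for 8 microglia markers, of which Cx3cr1 was at 0 in 25Q, P2ry12 in 97Q and Tmem119 in both. The 9 endothelial and mural markers stood at 68.9–151 and 147–1627 CPM, the upper value in batch 1, with Rgs5 at 0 in 97Q. The part of these cells in the members' differences was not tested. In the fit without neurons rich in glial markers, which left out 1 neuron of 25Q vehicle and 2 of 97Q vehicle, all 10 members still had lower values in 97Q.

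**Figure D4:**
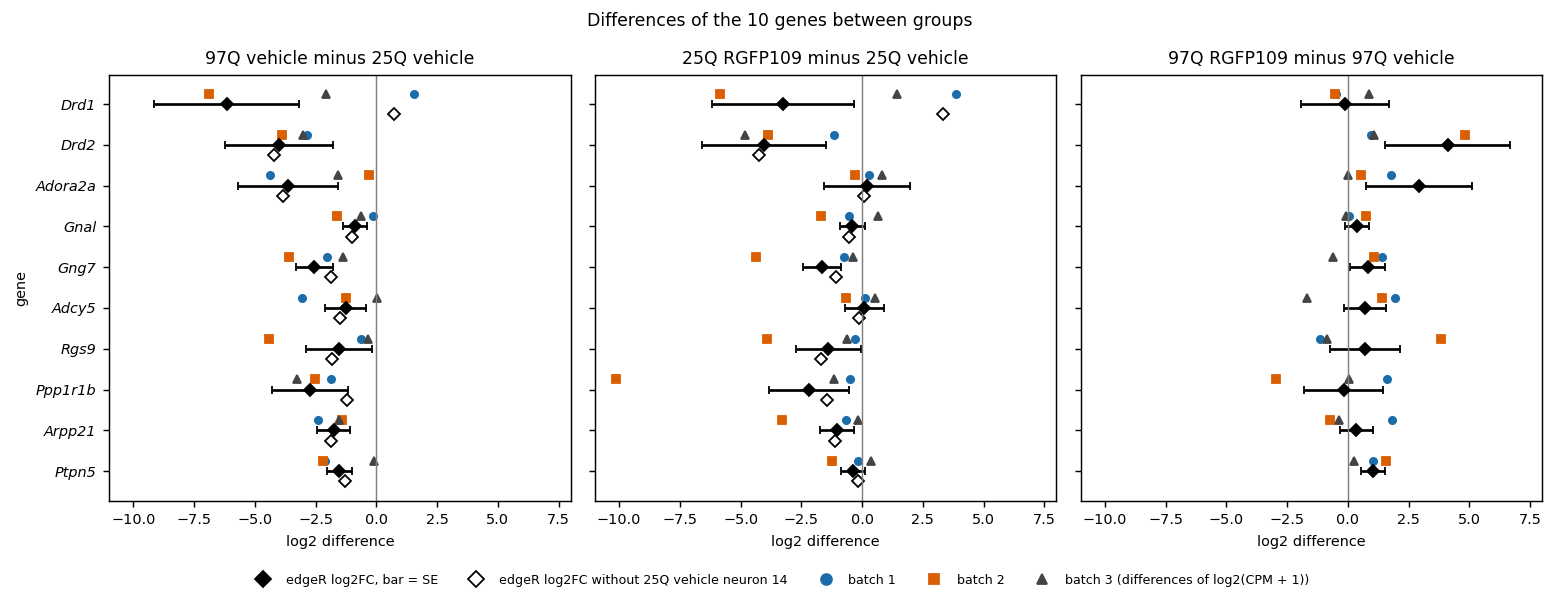
Black diamonds are fitted log2 fold changes with their SE for each gene in 3 comparisons, open diamonds the fit without 25Q vehicle neuron 14 where it was in the groups, and small symbols the differences of log2(CPM + 1) within batches 1, 2 and 3. In the left panel all 10 black diamonds lie below 0 and the open diamond of Drd1 lies at 0.73; in the middle panel the batch 2 symbols lie below 0 for all 10 genes.

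RGFP109 was compared with vehicle in each huntingtin group, to ask what inhibition of HDAC1 and HDAC3 did. In 97Q neurons 8 of the 10 genes had higher values with RGFP109 (median log2FC 0.70, beside -0.04 for all genes). edgeR called 0 of 15091 genes (0%; 375 genes at an unadjusted p under 0.05, or 2.48%, with 0 of the 10), DESeq2 110 (0.729%, with 0 of the 10) and limma 0 (798 unadjusted). Drd2 and Ptpn5 were higher in all 3 batches, beside 9.64% of all genes. Drd2 stood at 10.6, 27.1 and 7.02 CPM with RGFP109, beside 4.93, 0 and 2.76 CPM with vehicle (log2FC 4.11, SE 2.57). In each RGFP109 sum 1 neuron gave most of the Drd2 counts (79.6%, 94.9% and 93.1%). With vehicle, 1 neuron gave 99.4% of them in batch 1 and 100% in batch 3. Ptpn5 stood at 117, 222 and 194 CPM, with a log2FC of 1.02 (SE 0.49). In its batch 2 sum with RGFP109, 1 neuron gave 82.2% of the Ptpn5 counts, so the order in that batch leans on 1 cell. The other receptors did not move together: Drd1 had 9.80, 0 and 13.9 CPM (log2FC -0.10, SE 1.81) and Adora2a 2.64, 0.464 and 4.91 CPM (log2FC 2.92, SE 2.18). Gng7 had 253, 190 and 95.04 CPM, above vehicle in batches 1 and 2 and below it in batch 3 (log2FC 0.82, SE 0.73).

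Of the remaining genes in 97Q with RGFP109, Adcy5 stood at 29.9, 84.5 and 15.8 CPM and Rgs9 at 14.8, 23.0 and 15.9 CPM. Each had a log2FC of 0.70, with an SE of 0.86 for Adcy5 and 1.45 for Rgs9. Adcy5 was above vehicle in batches 1 and 2 and below it in batch 3. Rgs9 was below vehicle in batches 1 and 3 and above it only in batch 2, where 1 neuron gave 100% of its RGFP109 counts. Gnal at 302, 225 and 128 CPM had 0.37 and Arpp21 at 482, 549 and 138 CPM had 0.34. Ppp1r1b at 344, 39.6 and 8.24 CPM had -0.17 (SE 1.63), higher than vehicle in batch 1 and lower in batch 2. All overlapped the vehicle sums, and the edgeR adjusted p was 0.999 for each of the 10.

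In 25Q neurons, 8 of the 10 had lower values with RGFP109 (median log2FC -1.21, beside 0.00 for all genes), with a wide gap between batches. In batch 2 all 10 were lower by a median of 3.60 on the log2(CPM + 1) scale, while the medians in batches 1 and 3 were -0.39 and 0.10. edgeR called 0 genes (0%; 381 unadjusted, or 2.52%, with 0 of the 10), DESeq2 143 (0.948%, with 0 of the 10) and limma 0 (721 unadjusted). Without batch 2, 5 genes were lower and 5 higher. Drd2, Gng7, Rgs9, Ppp1r1b and Arpp21 were lower in all 3 batches, beside 13.8% of all genes, and the RGFP109 sums of Gng7 and Arpp21 lay below all vehicle sums, beside 3.84% of all genes.

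Gng7 in 25Q with RGFP109 stood at 234, 53.4 and 292 CPM (log2FC -1.66, SE 0.77) and Arpp21 at 458, 244 and 466.2 CPM (-1.03, SE 0.69). Drd2 stood at 18.4, 0 and 0.0955 CPM (-4.04, SE 2.55), so that its batch 3 sum of 11 neurons held 5 counts. Ppp1r1b stood at 289.9, 0.575 and 37.8 CPM (-2.19, SE 1.65). In batch 2, where 4 neurons with RGFP109 faced the 4 with vehicle that include neuron 14, the difference of Ppp1r1b was -10.14 on the log2(CPM + 1) scale. Drd1 stood at 76.2, 2.01 and 92.5 CPM, higher than vehicle in batches 1 and 3 and lower in batch 2; its log2FC was -3.25 (SE 2.93), and 3.32 without neuron 14. Adora2a at 25.8, 0 and 30.6 CPM had a log2FC of 0.22, Adcy5 at 70.6, 47.8 and 78.4 CPM had 0.10, Rgs9 at 43.8, 1.44 and 24.3 CPM had -1.39, Gnal at 227, 127.2 and 332 CPM had -0.41 and Ptpn5 at 220.9, 145 and 223 CPM had -0.36. The edgeR adjusted p was 1 for each.

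With RGFP109 in both, 97Q and 25Q neurons were compared last. Of the 10 genes 8 were lower in 97Q, with a median log2FC of -0.25 beside 0.0029 for all genes. The batches went opposite ways: 6 of the 10 were lower in batch 1, 1 in batch 2 (median 0.99) and 9 in batch 3 (median -1.68). Drd1 was the only one lower in all 3 batches, beside 13.4% of all genes, with a log2FC of -3.001 (SE 1.91), and Drd2 had 4.13 (SE 2.92) in the other direction. edgeR called 0 genes (0%; 564 unadjusted, or 3.74%, with 0 of the 10; lowest adjusted p 0.0742), DESeq2 277 (1.84%, with 0 of the 10) and limma 0 (922 unadjusted). These 4 comparisons share sums with one another, so their values are not independent.

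The difference between the RGFP109 effects, that in 97Q minus that in 25Q, was tested as an interaction. It was above 0 for all 10 genes (median log2 value 2.05, beside -0.04 for all genes). The batches did not agree: the members' median was 1.67 in batch 1, 4.06 in batch 2, which holds neuron 14, and -0.23 in batch 3, where 8 of the 10 were below 0. For this contrast edgeR called 0 genes (0%; 393 unadjusted, or 2.6%, with Gng7 among them), DESeq2 69 (0.457%, with 0 of the 10) and limma 0 (734 unadjusted). Drd2 had 8.14 (SE 3.79), with an adjusted p of 0.998 in edgeR and 0.0986 in DESeq2. That size depends on how counts of 0 are handled, since the batch 2 sums of 97Q vehicle and 25Q RGFP109 held 0 Drd2 counts. Drd2 and Ppp1r1b had a value above 0 in all 3 batches, beside 12.1% of all genes. Gng7 had 2.47 (SE 1.09) in the fit, with 2.14, 5.42 and -0.23 in the batches. Drd1 had 3.16 (SE 3.25), and -4.36 without neuron 14. The 25Q vehicle sums stand in this contrast and in the comparison of 97Q with 25Q, so the 2 sets of signs are not independent.

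Empty vector neurons were set beside the 25Q vehicle neurons of the same batch as 1 sum each, with no test. In the 9 empty vector neurons Gng7 stood at 85.7 CPM, so that the 25Q vehicle sum of 376 CPM was 4.39 times as high. The 25Q sum was also higher for Adcy5 (3.14 times the 17.0 CPM of the empty vector), Arpp21 (3.07 times 169 CPM), Rgs9 (2.77 times 13.7 CPM), Ppp1r1b (2.07 times 41.1 CPM), Drd1 (1.49 times 22.2 CPM) and Gnal (1.45 times 147 CPM). Ptpn5 was the exception, at 259.8 CPM in the empty vector, 1.48 times the 25Q sum. Drd2 had 0 counts in the empty vector, so the 25Q sum was at least 422-fold higher over a floor of 3 counts. Adora2a had 1 count there beside 1159 in 25Q, a ratio of 719.97 (95% counting interval 129–28462). Intervals and floors cover counting error only, since PCR copies were not told apart. Drd2 and Adora2a were each at 10 CPM or more in 3 of 15 neurons of 25Q, with cell medians of 0 in both groups. Neuron 26 gave 58.4% and 67.7% of those 25Q counts. Cell medians were higher in 25Q for Gng7, Adcy5, Arpp21, Gnal and Ptpn5. They were not for Drd1, Rgs9 and Ppp1r1b (0.157, 0.225 and 0.786 CPM beside 0.355, 0.280 and 0.788 CPM).

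Across all neurons, the empty vector included, the members were loosely correlated, with Drd1 at 0.04 or less with every other member. Of the 45 pairs, 5 had a Spearman rho above 0.5 and 7 were below 0, with a median of 0.26. The highest values were Arpp21 with Ppp1r1b (0.58), Gng7 with Ppp1r1b (0.56), Gng7 with Gnal (0.55), Gng7 with Adora2a (0.51) and Gng7 with Arpp21 (0.51). Drd1 had its lowest value with Drd2 (-0.16) and none above 0.04. Ptpn5 and Adcy5 were also low, with highest values of 0.32 (Ptpn5 with Arpp21) and 0.28 (Adcy5 with Gng7). No rho over pairs of all genes was computed. These values are descriptions over cells that share batches and differ in depth.

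**Figure D5:**
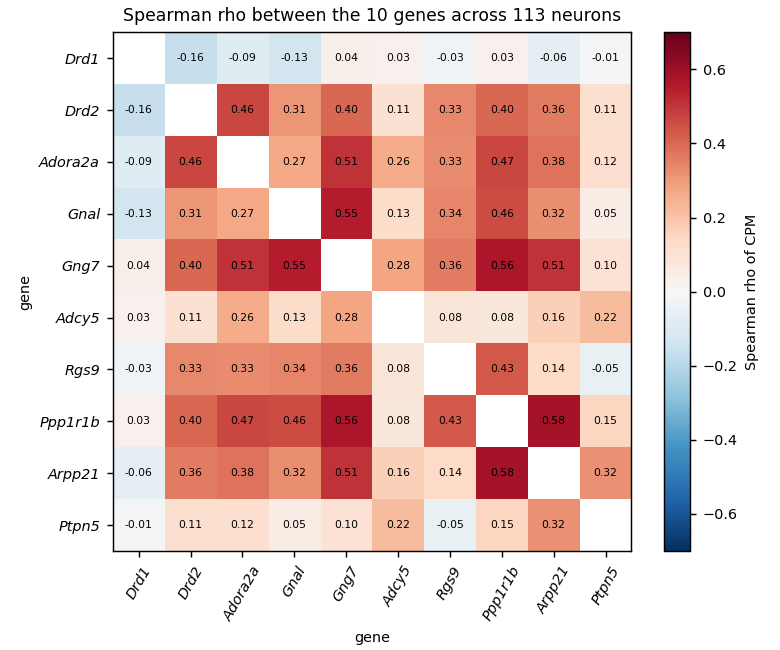
Each square gives the Spearman rho of CPM between 2 of the 10 genes over all neurons, as a colour and a number. The reddest squares are Arpp21 with Ppp1r1b (0.58) and Gng7 with Ppp1r1b (0.56), Gnal (0.55), Arpp21 (0.51) and Adora2a (0.51). The row of Drd1 runs from -0.16 to 0.04.

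Among 15638 genes compared, the genes most like each member across all neurons were found by Spearman rho. For Drd1 this was Nrg3 (0.39) and for Drd2 Tmem54 (0.48), which also led for Adora2a (0.53) ahead of Rgs8 (0.52) and Hpca (0.51). Gng7 was most like Gucy1a1 (0.63) and Hpca (0.60), Adcy5 like Rbfox1 (0.41), Rgs9 like Rarb (0.48) and Ptpn5 like Sez6 (0.46). Arpp21 was most like Ppp1r1b (0.58) and then Foxp1 (0.53). The most like genes of Gnal, Mppe1 (0.68), and of Ppp1r1b, 1700003D09Rik (0.86), are the ones whose exons overlap theirs on the other strand, so reads may be shared; next to Ppp1r1b came Pcp4l1 (0.68) and Syndig1 (0.63), and next to Gnal came Gng7 (0.55).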

How the data were processed

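The authors deposited 1 table of read counts, whole numbers per Ensembl gene and cell. Per the submitters' processing notes, FastQC, Trimmomatic 0.36, STAR 2.5 and HTSeq 0.9.1 were used with GRCm38 (mm10); the sources used here do not give their settings, annotation release or strandedness. Per the labels' protocols, cDNA was made with a SMARTer kit and libraries with Nextera XT, and the design text counts 117 neurons; 113 neurons and 14 astrocytes were analysed here. Symbols, positions and exon lengths came from GENCODE M21, which named 53274 of the 53465 identifiers and left 191 without a symbol.

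Counts were summed over the cells of a group and batch. edgeR 4.0.16 (R 4.3.3) fitted the 12 sums of the 4 huntingtin groups by group and batch with TMM scaling, after filterByExpr and a count in at least 20% of the 104 cells, leaving 15091 genes and 6 residual degrees of freedom (biological coefficient of variation 0.928). P-values from its quasi-likelihood test received a Benjamini-Hochberg adjustment across the genes tested (threshold 0.05); the SE is the log2FC divided by the root of F. Differences in batches are of log2(CPM + 1). Batch was kept as a block because the labels give it: deviations of sums from their group means correlated across genes at 0.156–0.230 in batch 1, 0.0614–0.134 in batch 2 and 0.254–0.328 in batch 3, and at most 0.0938 between batches. The alternatives were DESeq2 1.42.0, limma 3.58.1 on means over cells of log2(CPM + 1), library-size scaling, other count filters, no batch term, leaving out each batch, thinning every cell to 900000 counts, leaving out neurons with glial markers above 20% of the astrocyte median (1516 CPM; 10 of 113 neurons) and, added after seeing the data, leaving out 25Q vehicle neuron 14. The fitting was tested on simulated data. Python 3.11.15 with scipy 1.17.1 gave exact intervals.

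Named beyond the 10 were pathway genes with at least 10 CPM in a group's mean and one sign in all 3 batches, at most 2 lowest and 2 highest per list, and the 3 genes most like each member. The 10 genes and all lists were chosen with earlier results of these data known.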

Additional observations from a re-analysis of the deposited data

Results flagged for a closer look

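In the 9 empty vector neurons, 5 of the 9 members tested had a highest neuron set apart from the next (a gap over the range above Dixon's critical value of 0.493). Chance marks about 1 in 20 groups of normally distributed values, but single-cell levels are sparse and skewed: 49.1% of all 21213 genes with a count in these neurons passed the same rule, so 5 of 9 is near that background. Drd1 reached 231 CPM (230.698), with the next neuron at 77.97 CPM, Gng7 reached 308 CPM beside 119 CPM, Rgs9 133 CPM beside 34.1 CPM and Ppp1r1b 194 CPM beside 65.3 CPM. For Adora2a the neuron at 0.194 CPM held a single count and the other 8 had 0, a pattern that always passes.

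The RGFP109 effect on Drd2 was opposite in the huntingtin groups in every batch. Drd2 was higher than vehicle in 97Q and lower in 25Q in 3 of 3 batches. The difference was 8.14 on the log2 scale and did not pass the test (edgeR adjusted p = 0.998). Its size depends on how counts of 0 are handled, since the batch 2 sums of 97Q vehicle and 25Q RGFP109 held 0 Drd2 counts. With limma it was 2.44, and leaving out 1 batch at a time moved it between 3.97 and 14.2.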

How the results depend on the processing

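Of the 10 members' values in 97Q against 25Q with vehicle, 128 of 130 under the alternatives kept their direction. Both exceptions were Drd1 without 25Q vehicle neuron 14 (0.73 in edgeR, 0.48 in DESeq2), and DESeq2 alone passed 2 of them, Drd1 and Gng7. Leaving out 1 batch at a time moved Drd1 between -8.04 and -0.44, Adora2a between -8.15 and -2.52, Rgs9 between -2.89 and -0.48, Adcy5 between -2.33 and -0.63 and Gnal between -1.34 and -0.37. Directions turned for 11 of 110 values in 97Q with RGFP109, 14 of 130 in 25Q with RGFP109, 18 of 110 between the RGFP109 groups and 8 of 130 in the interaction; the cause was not tested. In place of 0 genes by edgeR, DESeq2 called 213, 110, 143, 277 and 69 genes in these 5 contrasts; without neuron 14 it called 184 in 97Q against 25Q with vehicle, 126 in 25Q with RGFP109 and 63 in the interaction. With no filter on low counts edgeR called 1 in 97Q with RGFP109 and 3 between the RGFP109 groups. With no replicate block (no batch term), Drd1 and Rgs9 in 97Q with RGFP109 were 0.13 and -0.091, Rgs9, Ppp1r1b and Arpp21 between the RGFP109 groups were -0.24, 0.24 and 0.12, and Adora2a in the interaction was -0.034; it moved no count of calls. With limma, 97Q with RGFP109 gave Drd1 0.055, Rgs9 -0.26 and Ppp1r1b 0.23; 25Q with RGFP109 gave Drd1 0.58, Adora2a -0.24 and Adcy5 -0.82; the RGFP109 groups gave Gnal 0.61, Gng7 0.042, Rgs9 -0.70, Ppp1r1b 1.23 and Arpp21 0.069; and the interaction gave Drd1 -0.52. Without glial-rich neurons, Ppp1r1b in 97Q with RGFP109 was 0.0093, and Gng7 and Ptpn5 between the RGFP109 groups were 0.085 and 0.099. In 25Q with RGFP109, thinning gave Adcy5 -0.10, and leaving out neuron 14 gave Drd1 3.32 and Adcy5 -0.11 in edgeR and 3.17 and -0.21 in DESeq2; the interaction of Drd1 was then -4.36 and -4.03. Leaving out 1 batch at a time gave, in 97Q with RGFP109, Gnal -0.041 to 0.63, Adcy5 -0.27 to 1.98, Rgs9 -1.08 to 2.30, Ppp1r1b -1.60 to 1.07 and Arpp21 -0.31 to 0.78; in 25Q with RGFP109, Drd1 -5.17 to 2.496, Adora2a -0.32 to 0.53, Gnal -1.21 to 0.25, Adcy5 -0.15 to 0.38 and Ptpn5 -0.66 to 0.10; between the RGFP109 groups, Adora2a -3.13 to 0.82, Gnal -0.67 to 0.74, Gng7 -0.73 to 0.78, Rgs9 -1.19 to 2.14, Ppp1r1b -1.49 to 0.55, Arpp21 -0.80 to 0.44 and Ptpn5 -0.67 to 0.32; and in the interaction, Drd1 -2.51 to 4.85, Gnal -0.29 to 1.82, Adcy5 -0.64 to 2.13 and Rgs9 -0.71 to 4.79. Neurons carrying Drd1 with Drd2 or Adora2a numbered 22 at 1 count and 1 at 10 CPM. Shares of cells with a count, astrocytes included, depend on depth: thinning kept 53 of 60 within their intervals. No detectable size of difference was computed.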
